A study of Rattus norvegicus with 4 samples.

Results

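The 8 genes described here encode the enzymes that cut and trim prohormones, and the 2 proteins that bind the cutting enzymes. They were chosen by name as Pcsk1, Pcsk2, Furin, Cpe, Cpd, Pam, Scg5 and Pcsk1n, and are 8 of the 23360 gene symbols in the files. Their messenger RNA was measured in the INS-1 832/3 line, which derives from a rat insulinoma, secretes insulin and carries a human insulin gene. The 2D monolayer group (2 samples) was grown as a standard adherent culture. The 3D bioprinted group (2 samples) was printed in GelXA LAMININK 411, a gelatin methacrylate hydrogel that contains laminin-411, and was crosslinked with UV light. Both groups were grown in RPMI-1640 with serum and Geneticin, and RNA was taken after 5 days at passage 3. A tumour line of 1 origin limits both groups as a model of the islet beta cell, and the 2 cultures per group are labelled biological replicates. The deposited values give no read depth, and between 19355 and 19959 transcripts were above 0 in each sample.

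Insulin and the other peptide hormones are made as longer precursors. In the secretory granule the prohormone convertases PCSK1 and PCSK2 cut the precursor after pairs of basic residues, and carboxypeptidase E, encoded by Cpe, removes the basic residues left at the new ends. The 7B2 protein, encoded by Scg5, is needed for the maturation of PCSK2, and proSAAS, encoded by Pcsk1n, inhibits PCSK1. PAM amidates the ends of peptides such as islet amyloid polypeptide, while furin and carboxypeptidase D act mainly in the trans-Golgi network on proteins of the constitutive pathway.

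Of the 8 genes, 4 rose in 3D culture, namely Pcsk2, Pam, Cpd and Cpe. Their mean levels were higher in the 3D samples by 1.49-fold for Pcsk2, 1.49-fold for Pam, 1.48-fold for Cpd and 1.19-fold for Cpe. None fell past the test in limma, where 1 gene, Pcsk1, was lower at an unadjusted p below 0.05. Pcsk1 was below the 2D samples in both 3D samples, Scg5 and Furin had overlapping or nearly equal values, and Pcsk1n was listed at 0 in all 4 samples and was not tested. Values are TPM, transcript abundances relative to the whole library and corrected for transcript length, summed per gene and scaled between samples, and tests are limma's moderated test on log2(TPM + 1) with Benjamini-Hochberg adjustment over the 11960 genes of mean TPM of at least 1. An adjusted p below 0.05 counts as passing. Without 3D replicate 1 none of the 4 rises passed, and without 3D replicate 2 only that of Pcsk2 did, in fits that called 0.309% and 5.29% of all genes.

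That 7 of the 8 genes could be tested and 4 rose has to be read against the whole comparison, in which 38.0% of the genes tested passed and 18.5% passed as higher and 19.5% as lower in 3D. The values of the 3D samples lay outside the range of the 2D samples for 5 of the 7 genes, and for 75.5% of all genes tested. A share of 5 in 7 is near that background and is no result about these genes. The median log2 difference was 0.25 over the 7 genes and -0.003 over all genes tested.

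The promoter windows of the genes that rose are shown first, to set the 3 of these genes that the RefSeq promoter table lists (Pcsk2, Pam and Cpe) beside Scg5, which did not pass the test. Windows were found for 5 of the 8 genes, the fifth being Pcsk1n. Each runs from 250 bases before the transcript start to 50 bases from it on, 5′ to 3′ on the gene's strand, in the GRCr8 build. Capitals mark matches, on either strand, to TGACG (the CRE half-site, bound by CREB family factors), GGGCGG (the GC box), ACGTG (the core bound by hypoxia-inducible factors) and CCAAT.
Pcsk2, chr3:151333688-151333987, plus strand: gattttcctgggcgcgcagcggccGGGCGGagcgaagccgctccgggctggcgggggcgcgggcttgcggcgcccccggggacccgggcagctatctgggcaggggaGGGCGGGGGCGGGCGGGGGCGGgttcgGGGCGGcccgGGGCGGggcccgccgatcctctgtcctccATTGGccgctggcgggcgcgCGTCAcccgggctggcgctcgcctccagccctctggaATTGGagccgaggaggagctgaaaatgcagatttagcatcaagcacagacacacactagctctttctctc
Pam, chr9:105570118-105570417, plus strand: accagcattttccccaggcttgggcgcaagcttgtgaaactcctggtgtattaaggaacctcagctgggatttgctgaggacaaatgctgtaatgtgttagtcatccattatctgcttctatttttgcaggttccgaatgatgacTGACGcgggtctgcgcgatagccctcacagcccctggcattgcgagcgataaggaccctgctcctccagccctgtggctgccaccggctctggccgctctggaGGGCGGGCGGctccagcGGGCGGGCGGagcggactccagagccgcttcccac
Cpe, chr16:29796457-29796756, plus strand: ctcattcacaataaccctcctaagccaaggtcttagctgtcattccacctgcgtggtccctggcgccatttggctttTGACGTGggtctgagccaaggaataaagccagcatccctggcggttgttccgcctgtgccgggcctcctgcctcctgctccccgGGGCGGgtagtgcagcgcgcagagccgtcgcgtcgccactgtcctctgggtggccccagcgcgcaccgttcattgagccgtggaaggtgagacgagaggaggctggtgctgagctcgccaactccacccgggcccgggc
Scg5, chr3:121042746-121043045, minus strand: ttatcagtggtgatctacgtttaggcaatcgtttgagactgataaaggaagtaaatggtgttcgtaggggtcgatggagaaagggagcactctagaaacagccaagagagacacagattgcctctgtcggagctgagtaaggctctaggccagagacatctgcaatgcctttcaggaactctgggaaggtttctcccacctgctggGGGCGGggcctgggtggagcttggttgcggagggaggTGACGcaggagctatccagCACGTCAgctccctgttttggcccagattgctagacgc

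The CRE half-site was in 4 of the 5 windows, all but that of Pcsk1n, and in 21.2% of the 33469 windows in the table. The GC box was in all 5, against 33.1% of windows, and the Pcsk2 window held 7 of them, some overlapping each other. The ACGTG core was found in the Cpe and Scg5 windows and in 19.3% of all windows, and in both genes it shared bases with a CRE half-site. Of the 5 windows only that of Pcsk2 had CCAAT, which 37.5% of all windows had. The Pcsk2 window was 73.3% G or C, above 95.4% of the windows in the table. The windows of Cpe, Pam and Scg5 were 64.7%, 59.3% and 54.0% G or C, where the median window had 51.7%. These matches are letters in a window, and no binding was measured.

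The levels of the 7 detected genes spanned a wide range and kept the same order in every sample. Cpe was the most abundant, ranked 90 among all genes in 2D and 52 in 3D. Scg5 came next at ranks 215 and 173, then Pcsk2 at 369 and 222, Pam at 813 and 519, Pcsk1 at 1002 and 1204, Cpd at 2395 and 1593, and Furin at 3487 and 3432. In neither group did the values of neighbours in this order overlap. Together the genes took 0.274% and 0.276% of the deposited TPM in the 2D samples and 0.343% and 0.341% in the 3D samples.

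**Figure D1:**
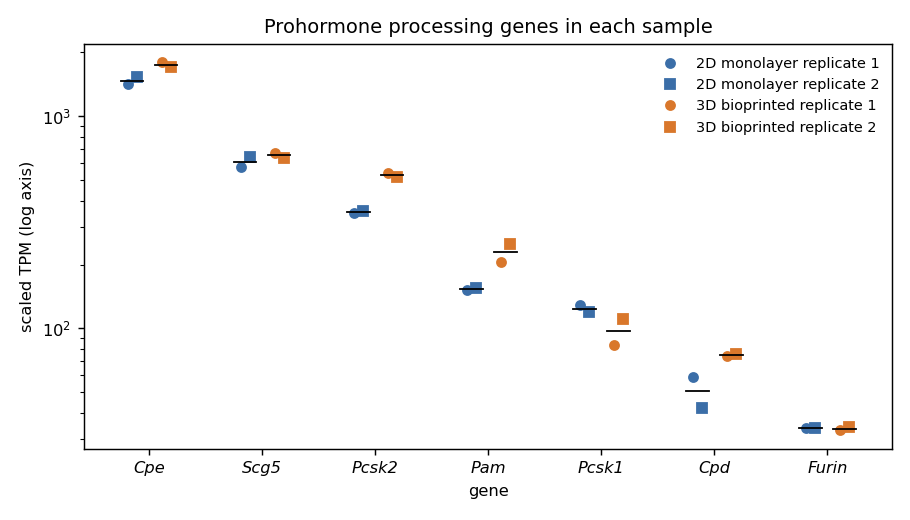
Scaled TPM (log axis) of the 7 detected genes in each sample, 2D monolayer in blue and 3D bioprinted in orange, with circles for replicate 1, squares for replicate 2 and black bars for group means. The 3D samples lay above the 2D samples for Cpe, Pcsk2, Pam and Cpd, below them for Pcsk1, and the groups overlapped for Scg5 and Furin.

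Pcsk2, the convertase that cuts proinsulin at the junction of C-peptide and A chain and that processes proglucagon in alpha cells, had 349.6 and 358 TPM in the 2D samples and 538 and 519 TPM in the 3D samples. The replicates lay close together within each group and the groups were far apart. The log2 difference was 0.58 ± 0.056 (SE, limma adjusted p = 0.0041), with a 95% interval from 0.44 to 0.72. Without 3D replicate 1 the difference was 0.55 and the adjusted p 0.066, in a fit that called only 37 genes in all.

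Pcsk1, the convertase that makes the first cut of proinsulin at the junction of B chain and C-peptide, had 129 and 119 TPM in the 2D samples and 83.9 and 111 TPM in the 3D samples. Both 3D values were below both 2D values, but 3D replicate 2 was near the monolayer cultures. On the log2 scale the difference was -0.36 ± 0.14 (SE, limma adjusted p = 0.088), and the unadjusted p was 0.043. It was -0.15 without 3D replicate 1 and -0.56 without 3D replicate 2, so its size depended on which 3D culture was kept.

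The balance of the 2 granule convertases was read from their ratio. In every sample the ratio of Pcsk2 to Pcsk1, which does not depend on scaling between samples, was above 1. It was 2.71 and 3.00 in the 2D samples and 6.41 and 4.66 in the 3D samples, with means of 2.86 ± 0.202 and 5.54 ± 1.24 (SD, n = 2). Both 3D cultures were above both monolayer cultures and differed from each other more than the monolayer cultures did. No test is given, since an exact permutation test of 2 against 2 samples cannot give a two-sided p below 0.33. Of the TPM of Pcsk1, Pcsk2 and Furin together, Pcsk2 made up 68.3% and 70.0% in 2D and 82.1% and 78.1% in 3D.

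Furin, the convertase of the trans-Golgi network that activates receptors and growth factors, had 33.8 TPM in both 2D samples and 33.1 and 34.3 TPM in the 3D samples. The 2D values lay between the 3D values. The difference on the log2 scale was -0.005 (adjusted p = 0.95 in limma), with a 95% interval from -0.15 to 0.14, so a change as large as that of Pcsk2 lay outside the interval. Its sign is not fixed, since it was 0.037 on TPM without scaling between samples.

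The other convertases, which act mainly outside the granule, were all below Pcsk1. Of the convertase family 8 genes were tested, 3 rose and none fell, a share near the 38.0% of all genes tested that passed. Besides Pcsk2, these were Pcsk5, a convertase of extracellular proteins, with 0.645 and 0.719 TPM in 2D and 2.25 and 2.39 TPM in 3D, and Pcsk4, with 2.61 and 2.66 TPM in 2D and 3.60 and 3.46 TPM in 3D. Pcsk5, above the filter only through its 3D values, had a log2 difference of 0.98 (adjusted p = 0.0058 in limma). That of Pcsk4 was 0.32 (adjusted p = 0.049 in limma) and passed in 5 of 14 other settings. At such levels the added pseudocount lowers the difference. Pcsk6 had 11.1 ± 0.757 TPM in 2D and 12.1 ± 0.554 TPM in 3D (SD, n = 2), and Pcsk7 had 8.10 ± 0.347 and 7.48 ± 0.017 TPM. Mbtps1, the site-1 protease, was the only other one above Furin, with 45.4 ± 0.712 and 48.6 ± 0.951 TPM. These last 3 did not pass, with adjusted p of 0.32, 0.33 and 0.21 in limma.

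**Figure D2:**
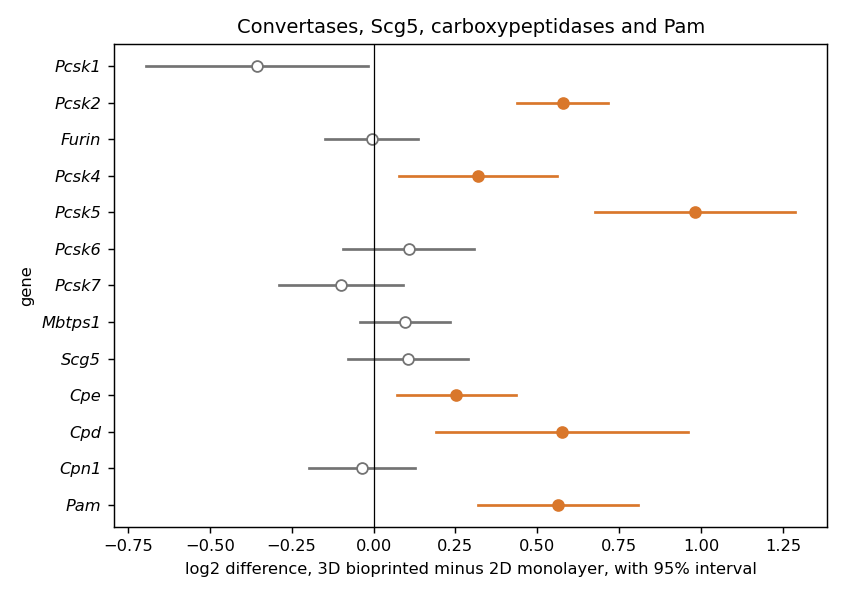
Log2 difference of 3D bioprinted minus 2D monolayer with its 95% interval, for the tested convertases, Scg5, carboxypeptidases and Pam, filled where the adjusted p was below 0.05. Pcsk2, Pcsk4, Pcsk5, Cpe, Cpd and Pam lie to the right of 0 and filled, while the open point of Pcsk1 lies at -0.36.

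Scg5, whose 7B2 protein accompanies pro-PCSK2 through the secretory pathway, had 578 and 641 TPM in the 2D samples and 671 and 639 TPM in the 3D samples. The groups overlapped, with 3D replicate 2 just below 2D replicate 2. The difference was 0.10 ± 0.073 (SE, limma adjusted p = 0.29), on the log2 scale, with a 95% interval from -0.078 to 0.29. Scg5 was thus above Pcsk2 in every sample, by a ratio of 1.65 and 1.79 in 2D and of 1.25 and 1.23 in 3D. The ratio was lower in both 3D samples than in either 2D sample.

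Pcsk1n, the gene of proSAAS, has 1 transcript in the files, ENSRNOT00000009794.5, and it was listed at 0 in all 4 samples. A listed 0 in a table of TPM can be a failed estimate, and without counts no detection limit can be given. The level of Pcsk1n is therefore not known from these files.

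Cpe, the carboxypeptidase of the granule, had 1414 and 1527 TPM in the 2D samples and 1796 and 1708 TPM in the 3D samples. Both 3D samples were above both 2D samples. The log2 difference was 0.25 ± 0.073 (SE, limma adjusted p = 0.043), with a 95% interval from 0.071 to 0.44. This call held in 8 of 16 other settings and was lost with any 1 of the 4 samples left out, with adjusted p from 0.057 (without 2D replicate 2) to 0.24 (without 3D replicate 1) and 0.11 and 0.15 without 2D replicate 1 and 3D replicate 2. The log2 difference then ran from 0.20 to 0.31.

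Cpd, the related membrane carboxypeptidase of the trans-Golgi network, had 59.2 and 42.1 TPM in the 2D samples and 74.0 and 75.8 TPM in the 3D samples. The 3D samples were alike, whereas the 2D samples differed from each other by more than 2D replicate 1 did from either 3D sample. The log2 difference was 0.58 ± 0.15 (SE, limma adjusted p = 0.035). It was 0.82 without 2D replicate 1 and 0.33 without 2D replicate 2, and without 3D replicate 1 or 3D replicate 2 the adjusted p was 0.16 in each case. The ratio of Cpe to Cpd was 23.9 and 36.3 in 2D and 24.3 and 22.6 in 3D, and the groups overlapped.

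Of the 8 carboxypeptidases of this subfamily, 3 were tested. The remaining one, Cpn1, the catalytic subunit of the plasma carboxypeptidase N, had 41.9 and 40.4 TPM in 2D and 38.6 and 41.7 TPM in 3D. Its log2 difference was -0.036 (adjusted p = 0.68 in limma), and was 0.007 on TPM without scaling. Cpm, Cpz, Cpxm1, Cpxm2 and Aebp1 lay below the filter.

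Pam, the only amidating enzyme known in mammals, had 152 and 155 TPM in the 2D samples and 206 and 250.01 TPM in the 3D samples. The 2D samples were nearly equal and the 3D samples, although above them, differed from each other. The log2 difference was 0.56 ± 0.098 (SE, limma adjusted p = 0.011), with a 95% interval from 0.32 to 0.81. It was 0.70 without 3D replicate 1 and 0.43 without 3D replicate 2, with adjusted p of 0.063 and 0.057. Islet amyloid polypeptide, encoded by Iapp, is a substrate of PAM. The ratio of Iapp to Pam was 72.4 and 70.3 in 2D and 59.2 and 51.9 in 3D, lower in both 3D samples.

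**Figure D3:**
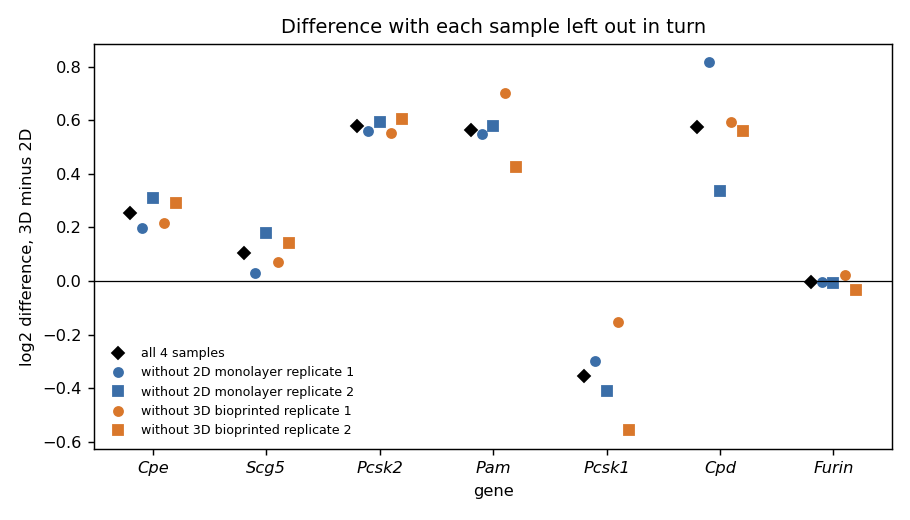
Log2 difference (3D minus 2D) of the 7 detected genes with all 4 samples (black diamonds) and with each sample left out in turn (blue for a 2D sample, orange for a 3D sample, circles for replicate 1, squares for replicate 2). Pcsk2 stays between 0.55 and 0.60, while Pcsk1 runs from -0.56 to -0.15 and Cpd from 0.33 to 0.82.

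The 8 genes are listed with 11 transcripts, and only Pam and Cpd have more than 1. Pam ENSRNOT00000056457.5 carried 68.1% and 70.4% of the gene's TPM in 2D and 68.8% and 69.4% in 3D, and ENSRNOT00000043451.5 nearly all of the rest. Both moved alike, with log2 differences of 0.54 and 0.55 and adjusted p of 0.035 and 0.029 in limma over all transcripts tested, of which 23.5% passed, 10.8% as higher and 12.7% as lower. The groups did not overlap for 7 of the 9 transcripts of these genes that were tested, nor for 71.2% of all transcripts tested. The share of the main Pam transcript in 3D lay within the range of the 2D samples. Cpd ENSRNOT00000084535.1 carried 74.3% and 78.5% of the gene in 2D and 73.5% and 76.0% in 3D. Its log2 difference was 0.52 and that of Cpd ENSRNOT00000005262.5 was 0.62, with adjusted p of 0.064 and 0.12. The difference of Cpd passed as a gene but neither of its transcripts passed alone. With any 1 of the 4 samples left out neither Pam transcript passed (adjusted p from 0.071 without 2D replicate 1 to 0.17 without 3D replicate 1), whereas both Cpd transcripts passed without 2D replicate 1 (adjusted p = 0.040). In the same fit the single transcript of Pcsk2 rose (adjusted p = 0.016), and that of Cpe did not pass (0.081).

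Proinsulin is a substrate of PCSK1, PCSK2 and carboxypeptidase E. Insulin was quantified as Ins1 and Ins2 of the rat and INS of the human transgene, among which reads of such similar sequences can be divided by the quantification. Their sum was therefore set against Pcsk1, Pcsk2 and Cpe. There were 385 and 434 insulin TPM per TPM of Pcsk2 in 2D and 267 and 294 in 3D. Per TPM of Pcsk1 there were 1044 and 1303 in 2D and 1713 and 1369 in 3D, and per TPM of Cpe 95.1 and 102 in 2D and 80.02 and 89.2 in 3D. Insulin transcripts per Pcsk2 and per Cpe were thus lower in both 3D samples, and insulin transcripts per Pcsk1 higher in both.

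**Figure D4:**
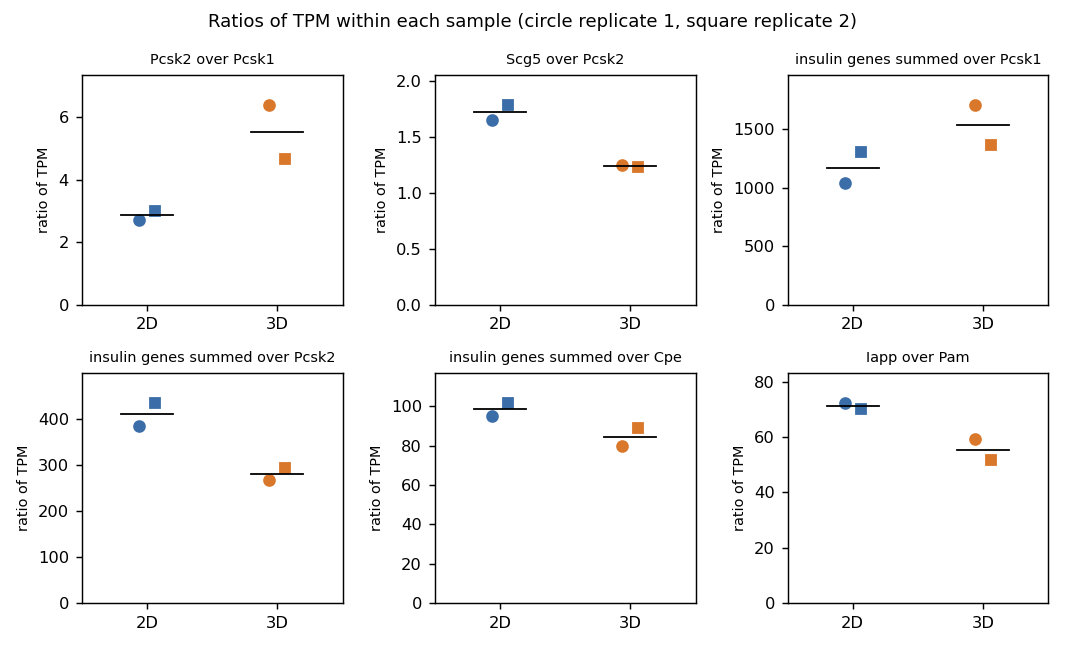
Ratios of TPM within each sample, 2D monolayer in blue and 3D bioprinted in orange, with circles for replicate 1, squares for replicate 2 and black bars for group means, all axes starting at 0. Pcsk2 over Pcsk1 was 2.71 and 3.00 in 2D and 6.41 and 4.66 in 3D, and the groups did not overlap in these 6 of the 8 ratios computed. Of the 2 not drawn, Cpe over Cpd overlapped and Cpe over Pcsk2 (4.05 and 4.27 in 2D, 3.34 and 3.29 in 3D) did not. Single genes did not overlap in 75.5% of all genes tested.

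The wider pathway was described with 8 lists of 90 symbols in all, of which 63 genes were tested. In them 22 genes rose, 8 fell and 33 did not pass, where 18.5% of all genes tested rose and 19.5% fell. Without the members, 26 of 56 passed, or 46.4%, against 38.0% of all genes tested, and the median log2 difference was 0.095.

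Besides Pam, the list of end modification and its cofactors held 8 genes, all tested. Atox1, the copper chaperone that supplies the secretory pathway with the metal PAM needs, fell from 174 ± 18.2 to 133 ± 0.094 TPM (SD, n = 2, adjusted p = 0.019 in limma). Cyb561, which passes electrons into the granule for PAM, had 38.7 ± 1.45 and 40.0 ± 2.91 TPM (adjusted p = 0.65). The remaining 6, among them the glutaminyl cyclases and the tyrosine sulfotransferases, did not pass. With Pam, 1 of the 9 genes rose and 1 fell, where 18.5% of all genes tested rose and 19.5% fell. The median log2 difference of the list was -0.14.

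Of 9 other proteases that trim or degrade peptides, 7 were tested, 3 rose and 2 fell, against 18.5% and 19.5% of all genes tested. Rnpep, an aminopeptidase that removes basic residues from the front of peptides, fell from 59.5 ± 1.37 to 43.6 ± 2.57 TPM (SD, n = 2, adjusted p = 0.0079 in limma). The lysosomal proteases Ctsl and Ctsd rose, with log2 differences of 0.38 and 0.27, and Ece1, the endothelin-converting enzyme, rose by 0.32, with adjusted p of 0.0091, 0.021 and 0.020. Npepps, a cytosolic aminopeptidase, fell with a log2 difference of -0.25 (adjusted p = 0.031), and Ide, the insulin-degrading enzyme, and Ctsb did not pass. These 3 genes were named after their values were seen.

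Of 12 symbols for granule maturation and sorting, 11 were in the files and tested. Hid1 and Eipr1, which act in the formation of dense-core granules, fell with log2 differences of -0.29 and -0.59 (adjusted p = 0.016 and 0.0095 in limma). Hid1 went from 149.6 ± 1.09 to 122 ± 5.51 TPM (SD, n = 2) and Eipr1 from 23.0 ± 1.79 to 15.0 ± 1.49 TPM. Gga3, an adaptor of the trans-Golgi network, rose by 0.30 (adjusted p = 0.036), and the other 8 did not pass. So 1 rose and 2 fell, where 18.5% of all genes tested rose and 19.5% fell, and these counts are no result about the list.

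Of 27 genes for prohormones and granins, the substrates of the pathway, 17 were tested, 8 rose and 3 fell. Over all genes tested 18.5% rose and 19.5% fell. The largest shares of TPM belong to the insulins and to Iapp and Chga, for which Ins2 fell with a log2 difference of -0.58 (adjusted p = 0.0095 in limma) and Ins1, INS, Iapp and Chga did not pass. Tac1, the tachykinin precursor, went from 1.57 ± 0.504 to 5.94 ± 0.614 TPM (SD, n = 2) and Cartpt from 1.34 ± 0.487 to 4.29 ± 0.129 TPM, both rises at low level (adjusted p = 0.0050 and 0.0069). Npy, the neuropeptide Y precursor, fell from 157 ± 23.7 to 90.0 ± 4.25 TPM (adjusted p = 0.0070). The other rises were of the granins Chgb, Scg2, Scg3 and Vgf and of Gcg and Resp18, and the other fall was of Pomc, all 7 named after their values were seen. Chgb, chromogranin B, had the highest level among them, with 2461 and 3317 TPM in 2D and 4590.4 and 5347 TPM in 3D.

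Of 14 client genes of furin and its relatives, 7 were tested, 4 rose and none fell. Among all genes tested 18.5% rose and 19.5% fell, and 7 genes are few for such a share. Insr and Igf1r, the receptors of insulin and IGF1, had log2 differences of 0.29 and 0.60 (adjusted p = 0.047 and 0.024 in limma), of which that of Insr passed in 6 of 14 other settings. Adam10, a sheddase, rose by 0.49 (adjusted p = 0.014). Tgfb2 rose from 0.128 ± 0.041 to 6.75 ± 2.42 TPM (SD, n = 2, adjusted p = 0.0037). It was near the floor in 2D and was above the filter only through its 3D values.

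**Figure D5:**
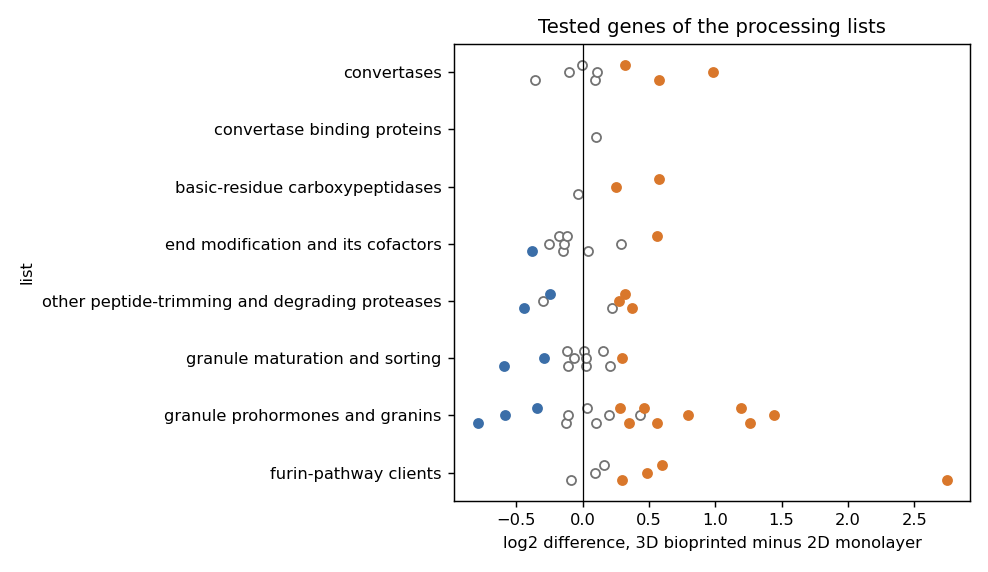
Log2 difference (3D bioprinted minus 2D monolayer) of every tested gene in the 8 lists, orange for genes that rose, blue for genes that fell and open grey for those that did not pass, with vertical offsets only to separate points. No blue point is found in 4 of the 8 lists, namely convertases (8 tested), binding proteins (1), carboxypeptidases (3) and furin-pathway clients (7). Of all genes tested 19.5% passed as lower, so an absence among so few genes is no result about these lists. The list of prohormones and granins holds 8 orange and 3 blue points among 17 genes tested.

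As a description of likeness, the genes of mean TPM of at least 50 were ordered by the distance of their centred log2 values over the 4 samples to those of each granule convertase, out of 2372 candidates. Nearest to Pcsk2 were Pklr, the liver-type pyruvate kinase (distance 0.055), Arrdc4 (0.056) and Nudt4 (0.056). Pklr had 100.1 and 106 TPM in 2D and 151 and 149.7 TPM in 3D. Nearest to Pcsk1 were Pdia4, an oxidoreductase of the endoplasmic reticulum (distance 0.10), AABR07050879.1 (0.12) and Agpat1 (0.16). Pdia4 had 227 and 216 TPM in 2D and 154 and 186 TPM in 3D, and was lowest in 3D replicate 1, as Pcsk1 was. With 4 samples many genes share such a profile.

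The cells carried the markers of their label. Of 10 beta-cell markers 9 were in the files, and all 9 were above the filter. Their sum ran from 138172 to 157768 TPM in 2D and from 149075 to 158167 TPM in 3D, and most of it was Ins1. Of the 9, 1 rose (Slc2a2), 1 fell (Ins2) and 7 did not pass, where 38.0% of all genes tested passed. Among alpha-cell markers, which bear on Pcsk2 as the convertase of that cell, Gcg had 41.5 and 76.9 TPM in 2D and 123 and 152 TPM in 3D (log2 difference 1.26, adjusted p = 0.022 in limma). Irx2 was listed at 0 in all samples, and Dpp4 was at most 0.113 TPM. The part of Gcg-expressing cells in the difference of Pcsk2 was not tested. In bulk RNA more cells of a type and more RNA per cell cannot be told apart. The summed markers of delta, PP, exocrine, endothelial, fibroblast and white blood cells were each at most 1.46 TPM in any sample.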

How the data were processed

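Messenger RNA of 4 samples, 2 per culture condition, was grouped by the sample titles. The authors prepared stranded mRNA libraries, sequenced them as single-end reads, checked them with FastQC 0.11.8 and quantified them per transcript with Salmon 1.2 against rn4 with the human insulin gene added. They deposited TPM, written with decimal commas, and each sample sums to 1000000. TPM keep no depth, so no counting interval or detection limit can be given, precision is that of 2 cultures per group, and the DESeq2 test of the methods, which needs counts, was not repeated. How the cultures were separated is not stated beyond the label, so p-values rest on the spread between these samples only. The moderated test sets the spread of each gene in part from that shared across genes of like level.

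TPM were summed per symbol and divided by factors from an unweighted trimmed mean of M values over genes of mean TPM of at least 1 (trimming 30% of M and 5% of A per end, factors 0.960 to 1.02). The test was that of limma 3.58.1 in R 4.3.3, on log2(TPM + 1), with an intensity trend in the empirical Bayes step. Differences on this scale understate changes of low genes. The steps were run on simulated data in which 200 genes were changed. In the real comparison 4541 genes passed, so the simulation does not show how the steps perform on these data. The members and lists were chosen with earlier results of these data known. All members are named, with every tested gene of the convertase, binding protein and carboxypeptidase lists, up to 4 passing genes of smallest p from each other list, 8 fixed genes and the 3 nearest profiles. List symbols were matched by name to the files or through RefSeq synonyms, and 89 of 90 were found. Some genes of the lists are not reported here. Promoters come from RefSeq, and GRCr8 is not the authors' build. Alternatives were the scaling, filter, pseudocount, empirical Bayes options, replicate block, threshold, the main transcript alone and each sample left out.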

Additional observations from a re-analysis of the deposited data

How the results depend on the processing

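Of the 4 rises among the members, 2 remained without an expression filter and 2 with empirical Bayes without trend. At an adjusted p below 0.01, 1 remained. Of all genes tested, 21.4% passed without a filter and 35.1% without trend, against 38.0% in the main fit. With each sample left out in turn, the log2 difference ran from 0.55 to 0.60 for Pcsk2 and from 0.43 to 0.70 for Pam. It ran from 0.33 to 0.82 for Cpd and from 0.20 to 0.31 for Cpe. Leaving out 3D replicate 1 left 37 of all 11960 genes past the threshold, and leaving out 3D replicate 2 left 633. Over the 8 lists the rises went from 22 to 6 and the falls from 8 to 4 at an adjusted p below 0.01, the falls to 5 on TPM without the insulin genes, and with each sample left out they ran from 1 to 19 and from 0 to 7, lowest without 3D replicate 1 (1 rise, 0 falls) and 3D replicate 2 (4 rises, 0 falls). The number of members' transcripts that rose was 3 with all samples, 3 without 2D replicate 1 and 0 without any of the other 3 samples. Without 2D replicate 1 the transcripts that passed were in part different ones, both of Cpd (adjusted p = 0.040 in limma) in place of both of Pam (0.071 and 0.11). In these fits 0 transcripts fell. The members' falls were 0 with each sample left out.

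Samples that share a replicate number did not deviate together (r = -0.006 across genes, with 2 numbers), so the numbers were not taken as a pairing. With the replicate number as a block the members held 1 fall, Pcsk1 (adjusted p = 0.045 in limma), and Cpe no longer passed (0.093). Cpe also failed with the trimmed mean taken over all genes (0.060), a scaling chosen after seeing the data, without a filter (0.093) and without trend (0.055). Cpd failed without a filter (0.085), without trend (0.053) and with robust empirical Bayes (0.063). The cause of these losses was not tested.

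The sign of Furin turned on TPM without scaling (0.037), on TPM without the insulin genes (0.050) and with the main transcripts alone (0.0018), and that of Cpn1 on the first of these (0.0068) and the second (0.020). With each sample left out, Furin ran from -0.032 to 0.021, Cpn1 from -0.090 to 0.019, Chga from -0.23 to 0.020, Cyb561 from -0.028 to 0.12 and Ins1 from -0.012 to 0.21. With each sample left out the percent difference of Pcsk2 over Pcsk1 ran from 63.0 to 124, of Scg5 over Pcsk2 from -30.8 to -25.0, of Cpe over Cpd from -35.5 to -2.05, of Cpe over Pcsk2 from -22.3 to -18.0, of insulin over Pcsk1 from 16.6 to 47.6, over Pcsk2 from -35.4 to -27.1 and over Cpe from -18.7 to -9.36, and of Iapp over Pam from -27.4 to -17.1.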
